A study of Arabidopsis thaliana with 6 samples.

Results

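GH3.5, LBD16 and IAA20 are 3 Arabidopsis thaliana genes of the response to the hormone auxin, followed here in cultured cells of the ecotype Ler. They were taken by name from the platform annotation of the ATH1 array, where each is paired with 1 probe set, and they are 3 of the 13286 genes that have a probe set here. They were chosen by their intensities on these same 6 arrays, with the difference between media already known, so their levels and ratios are given as a description with no test. The study moved callus into 2 liquid media and took 1 array for each of 6 conditions. High differentiating medium was sampled at days 2, 5 and 9, low differentiating medium at days 5 and 9, and callus at day 0.

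All 6 cultures began as leaves of seedlings 14 to 17 days old, kept for 2 weeks at 22 °C in the dark on a callus induction medium. High medium held 0.2 mg/l auxins, named in the labels as 2,4-D, NAA and IAA, with 1 mg/l of the cytokinin benzyladenine, 0.2% sucrose and 4% mannitol. It is not clear from the labels if each auxin was at 0.2 mg/l or all 3 together. Low medium held 0.5 mg/l 2,4-D, a synthetic auxin, with 1.5 µg/l of the cytokinin kinetin and the same sucrose and mannitol. Cultures in both liquid media were shaken at 105 rpm, and the labels give no shaking for callus. The callus induction medium held 0.5 mg/l 2,4-D, 0.05 mg/l kinetin and 2.0% glucose. Low medium and callus medium therefore shared the auxin and its amount, while the media differed in cytokinin as well, so an effect of auxin and one of cytokinin cannot be told apart. One label field repeats the hormones of high medium for all 6 samples, so the medium of each was taken from its own name and treatment text. The labels call the tissue a cell culture and name no cell type.

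Auxin acts by making Aux/IAA proteins bind a receptor complex that marks them for degradation, which frees auxin response factors to switch on target genes. Among these targets are many Aux/IAA genes themselves, GH3 genes, whose enzymes join auxin to amino acids and so lower free auxin, and LBD genes, which encode transcription factors. GH3.5 (AT4G27260, also called WES1) encodes one such conjugating enzyme. LBD16 (AT2G42430) encodes a factor that acts below the response factors ARF7 and ARF19 in lateral root initiation and in callus formation. IAA20 (AT2G46990) encodes an Aux/IAA protein that lacks the degron through which auxin destabilises most of that family.

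With 1 array per condition no difference has a replicate check, and no p-value is given. Differences were described on the log2 scale with intensities under 24.7 raised to that floor (the 40th percentile of an array, as a median of the 6), and a size of at least 2-fold was used to count them. The deposited arrays had been brought to a common level, with trimmed means of 99.25 to 99.38. As a gauge of spread between arrays, the 5 genes of a reference list that lay above the floor on all 6 arrays varied by 1.12-fold to 1.37-fold between their lowest and highest array. Of these, TIP41L read 190.9 to 213.5 and SAND 113.1 to 137.2. Scan background was 105 on the low medium array of day 5 and 69.0 to 82.0 on the other 5. Of 28 marker genes written for leaf mesophyll, xylem, phloem, epidermis and root, 3 have a named probe set, so the cell types present could not be checked from them. The mesophyll gene LHCB4.1 differed most at day 9, with 65.2 in the high and 30.9 in the low medium. The phloem gene OPS read 56.0 in the high and 21.6 in the low medium at day 5, and the root hair gene EXPA7 was not above the floor on any array. The part of these in the results below was not tested.

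GH3.5 and LBD16 shared a course in time. Both read lower in the high medium at days 2 and 5 than in callus, and lower at day 5 than in the low medium. For GH3.5 the log2 step from callus to day 5 of high medium, 0.37, lay within the largest spread of a reference gene, 0.45. By day 9 both genes reached nearly the level of low medium. IAA20 took another course, in which high medium read further below low medium at day 9 than at day 5. The log2 steps of IAA20 from day 5 to day 9 were -0.23 in high and 0.29 in low medium. Both lay within the largest spread of a reference gene, 0.45, so neither step is set apart from no change. In RNA from whole cultures, fewer cells that express a gene and less RNA per cell cannot be told apart.

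**Figure D1:**
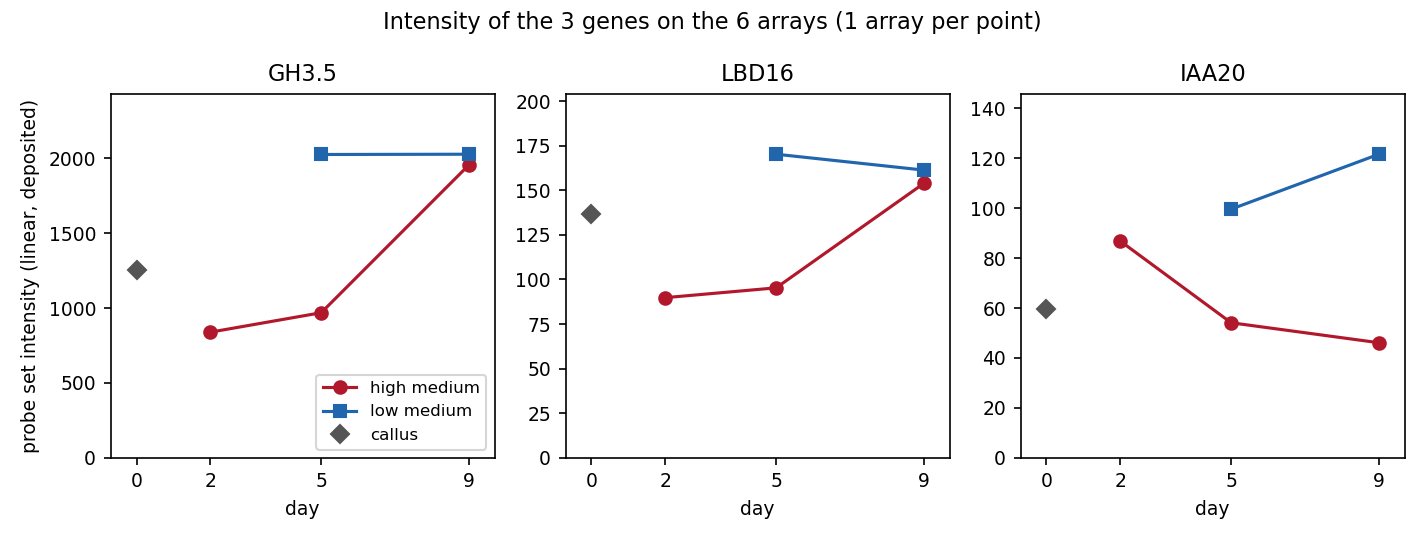
Deposited probe set intensity (vertical axis, linear, from 0) against day for GH3.5, LBD16 and IAA20, with 1 array for each point and lines joining arrays of the same medium. The high and low medium points of GH3.5 lie apart at day 5 (969 and 2025) and together at day 9 (1956 and 2027), while those of IAA20 lie farther apart at day 9 (46.1 and 121.6) than at day 5 (54.1 and 99.6).

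GH3.5 read 1251 in callus at day 0, and 839, 969 and 1956 in the high medium at days 2, 5 and 9. It read 2025 and 2027 in the low medium at days 5 and 9. Both low medium arrays and the day 9 array of high medium thus lay close together at the top, callus lay in the middle, and the 2 early high medium arrays lay lowest. The first 3 levels in this order differed by steps of 0.001 and 0.05 on the log2 scale, less than the spread of the reference genes. The next step down, to callus, was 0.64, and those from callus to day 5 and on to day 2 of high medium were 0.37 and 0.21, both within the largest spread of a reference gene, 0.45. Over all 6 arrays GH3.5 varied 2.42-fold.

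LBD16 followed nearly the same order at a smaller amplitude, 1.90-fold between its lowest and highest array. It read 136.5 in callus, then 89.8 at day 2, 95.3 at day 5 and 153.9 at day 9 of high medium, and 170 and 161 in the low medium at days 5 and 9. The 3 highest levels again were the 2 low medium arrays and day 9 of high medium, separated by log2 steps of 0.08 and 0.07. Callus lay 0.17 below the lowest of these, also within the spread of the reference genes, so its place in the order is not settled. The largest step, 0.52, separated callus from day 5 of high medium, and the last 2 levels differed by 0.09.

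IAA20 read 59.7 in callus, then 86.8 at day 2, 54.1 at day 5 and 46.1 at day 9 of high medium, and 99.6 and 121.6 in the low medium at days 5 and 9. Here both low medium arrays were the highest, and day 2 of high medium came next. Callus and the 2 later high medium arrays were the lowest. IAA20 varied 2.64-fold over the arrays, and its lowest level was only 1.87 times the floor, so it was the dimmest of the 3 genes relative to that floor. In high medium the log2 steps were -0.68 from day 2 to day 5 and -0.23 from day 5 to day 9, whereas in the low medium the step from day 5 to day 9 was 0.29. The steps of 0.29, -0.23 and the 0.14 between callus and day 5 of high medium lay within the spread seen in reference genes. Day 2 of high medium lay 0.20 below day 5 of low medium, also within that spread, so their order is not settled.

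The comparison of high with low medium at matched days asked how the auxin response genes differed between the media. At day 5 all 3 genes read lower in the high medium. GH3.5 read 969 in the high and 2025 in the low medium, a log2 ratio of -1.06. LBD16 read 95.3 in the high and 170 in the low medium, a log2 ratio of -0.84, and IAA20 read 54.1 and 99.6 in the high and low medium, a log2 ratio of -0.88. Of the 3 genes only GH3.5 passed the 2-fold size, where 0.396% of all 22746 probe sets that are not controls were at least 2-fold lower and 0.765% at least 2-fold higher. Because the genes were chosen for this difference, nothing is read from that count. Over the 13167 probe sets above the floor on both arrays the median log2 ratio was -0.02. The 5th and 95th percentiles were -0.50 and 0.48. Each of the 3 lay below the 5th percentile, and since they were chosen for this difference nothing is read from that place either. The 5 reference genes differed between these arrays by at most 0.24 in size.

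At day 9 the 3 genes parted. GH3.5 read 1956 in the high and 2027 in the low medium, a log2 ratio of -0.05. LBD16 read 153.9 in the high and 161 in the low medium, a log2 ratio of -0.07. Both differences were smaller than the 0.23 reached among the reference genes. IAA20 read 46.1 in the high and 121.6 in the low medium, a log2 ratio of -1.40, and was the 1 gene of the 3 past the 2-fold size, against 0.149% of probe sets lower and 0.264% higher at that size. With the floor raised to 65.1 high medium lay at the floor on both days, and the ratios of IAA20 were bounds of -0.61 at day 5 and -0.90 at day 9. The difference between media thus changed between the days by 1.01 on the log2 scale in GH3.5, by 0.77 in LBD16 and by -0.52 in IAA20, toward 0 in the first pair and away from 0 in IAA20. No error can be set on these changes, and under the raised floor the change of IAA20 is not measured, since both of its ratios are bounds.

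**Figure D2:**
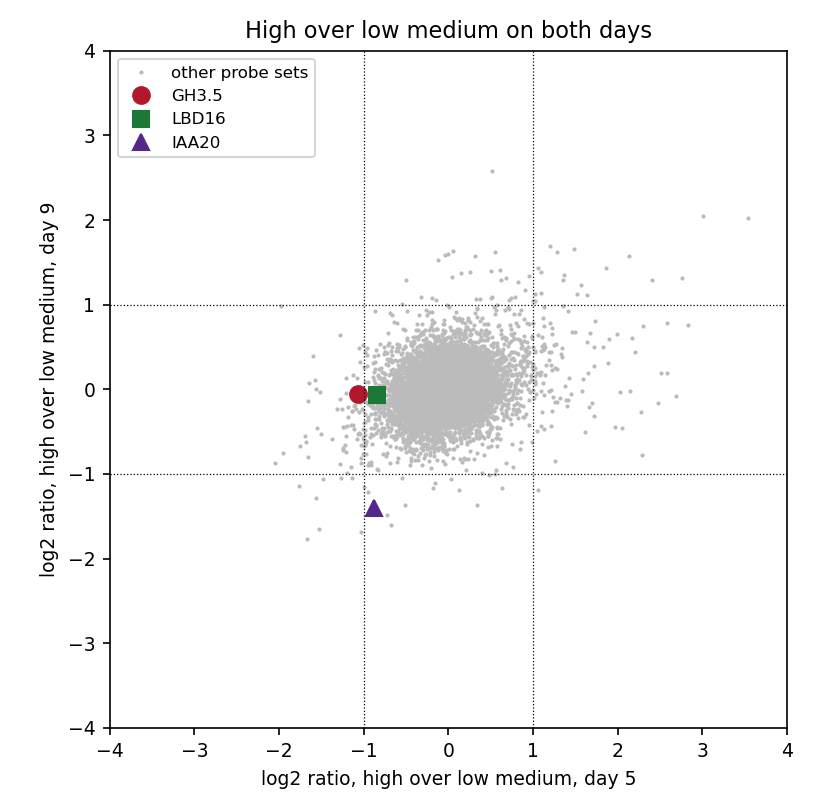
Log2 ratio of high over low medium at day 5 (horizontal) and day 9 (vertical) for the 12579 probe sets above the floor on all 4 arrays, with GH3.5, LBD16 and IAA20 marked and dotted lines at a 2-fold difference. GH3.5 and LBD16 lie to the left near 0 on the day 9 axis, while IAA20 lies at the lower left, at -0.88 and -1.40.

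In high medium GH3.5 and LBD16 first read lower at day 2 than in callus, by log2 ratios of -0.58 and -0.60. Their rise from day 2 on took place mostly after day 5. From day 2 to day 5 the log2 steps were 0.21 for GH3.5 and 0.09 for LBD16, and from day 5 to day 9 they were 1.01 and 0.69. In low medium the steps from day 5 to day 9 were 0.00 for GH3.5 and -0.08 for LBD16. No sample of low medium at day 2 is among these arrays, so the level of either gene there at that time was not analysed here.

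The comparisons with callus set each liquid culture against the tissue it came from, and all 5 share the single callus array. The liquid cultures also differed from callus in shaking and in holding sucrose and mannitol in place of glucose. Effects of these and of the hormones cannot be told apart in the ratios against callus. At day 2 of high medium GH3.5 and LBD16 had log2 ratios of -0.58 and -0.60 against callus, and IAA20 had 0.54. None of the 3 was 2-fold different, against 3.24% of all probe sets. At day 5 of high medium the log2 ratios were -0.37 for GH3.5, -0.52 for LBD16 and -0.14 for IAA20, with 4.24% of probe sets 2-fold different. At day 9 of high medium GH3.5 had 0.64, LBD16 had 0.17 and IAA20 had -0.37, with 3.11% of probe sets 2-fold different. All these values lay between the 5th and 95th percentiles of their comparison, which were -0.76 and 0.71 (day 2), -0.90 and 0.80 (day 5), and -0.79 and 0.72 (day 9).

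In low medium all 3 genes read higher than in callus on both days. At day 5 the log2 ratios were 0.69 for GH3.5, 0.32 for LBD16 and 0.74 for IAA20, none of them 2-fold, against 4.37% of probe sets that were. At day 9 GH3.5 had 0.70, LBD16 had 0.24 and IAA20 had 1.03. IAA20 was thus the 1 gene of the 3 at least 2-fold higher than in callus at day 9, where 1.19% of probe sets were. That place rests on the scaling and the floor, since the log2 ratio was 0.98 when arrays were scaled to the reference genes. The 95th percentile was 0.82 at day 5, which none of the 3 exceeded. At day 9 it was 0.68, which IAA20 exceeded and GH3.5 exceeded only narrowly.

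The rest of the auxin pathway could be followed only in part. Of 228 genes written in 10 auxin lists, 22 have a named probe set. These cover Aux/IAA, GH3, LBD, auxin synthesis, auxin conjugate turnover, and lateral root and callus regulators. No gene of the lists of auxin receptors, auxin response factors, auxin transporters or SAUR genes has a named probe set here. Among the 22, 14 had a ratio between media at day 5, of which 11 read lower in the high medium and 3 higher. 2 of them, GH3.5 and PUCHI, were at least 2-fold lower, and none was 2-fold higher. The median log2 ratio of the 14 was -0.48. Over all 7877 genes with a ratio it was -0.03, with 4307 lower and 3540 higher, and 35 were at least 2-fold lower and 72 at least 2-fold higher. Without GH3.5, LBD16 and IAA20 it was -0.34, with 8 lower and 3 higher. At day 9 the median of the 14 was -0.11, with 10 lower and 4 higher, and IAA20 was the 1 gene past 2-fold. Over all 7660 genes with a ratio at day 9, 3882 were lower and 3749 higher, with 15 and 20 of them past 2-fold.

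Of the 5 measured GH3 genes, 4 lay above the floor on all arrays, and 3 of these, GH3.5, GH3.1 and GH3.17, read lower in the high than in the low medium at day 5. GH3.1, of the same group of auxin-conjugating enzymes as GH3.5, read 104.3 in the high and 199.8 in the low medium at day 5, and at day 9 it read 256.7 in the high and 289.2 in the low medium, log2 ratios of -0.94 and -0.17. It read 88.6 in the high medium at day 2 and 164.5 in callus, so high medium lay lowest at day 2 and above callus by day 9, as for GH3.5. GH3.17, which is known to act on auxin with glutamate, had log2 ratios of -0.57 and -0.26 between media, both in the same direction. GH3.3, in contrast, read 2098 in the high and 2062 in the low medium at day 5, a log2 ratio of 0.03, and 0.14 at day 9. GH3.9 was not above the floor on any array.

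In the LBD family the second measured gene, LBD29, which acts with LBD16 in lateral root formation, was not above the floor on any array. PUCHI, which encodes an AP2/ERF transcription factor of the lateral root primordium, read 67.4 in the high and 138.6 in the low medium at day 5, a log2 ratio of -1.04, and 126.2 and 139.8 at day 9, a log2 ratio of -0.15. It read 47.5 in the high medium at day 2 and 92.7 in callus. HAT2, an auxin-induced homeodomain gene of the same list, had log2 ratios of -0.40 and -0.21 between media and was the 1 auxin gene at least 2-fold different from callus in the high medium at day 5, at -1.07. It is named because of that value, after it was seen. HAT2 also read lower than callus in the high medium at days 2 and 9, at -0.47 and -0.50. In the low medium it had -0.67 at day 5 and -0.29 at day 9 against callus.

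Among the 7 measured Aux/IAA genes, 5 lay above the floor on at least 1 array, and they did not move as one. IAA29 read 32.2 in the high and 49.4 in the low medium at day 5, a log2 ratio of -0.62, and had -0.08 at day 9, as in the course of GH3.5. In the high medium at day 2 it read 17.9, below the floor. IAA30, a close relative of IAA20 and likewise without the degron, had 0.20 at day 5 and -0.82 at day 9. It read 184 in the high and 325 in the low medium at day 9. IAA33, below the floor at both times in the high medium, read 31.3 (day 5) and 49.0 (day 9) in the low medium, so its log2 ratios were at most -0.34 and -0.99. IAA18 had -0.06 and 0.17, and IAA31 and IAA34 were not above the floor on any array. At day 9, IAA20, IAA30 and IAA33 thus lay below the 5th percentile of all probe sets, -0.42, while IAA18 and IAA29 did not.

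**Figure D3:**
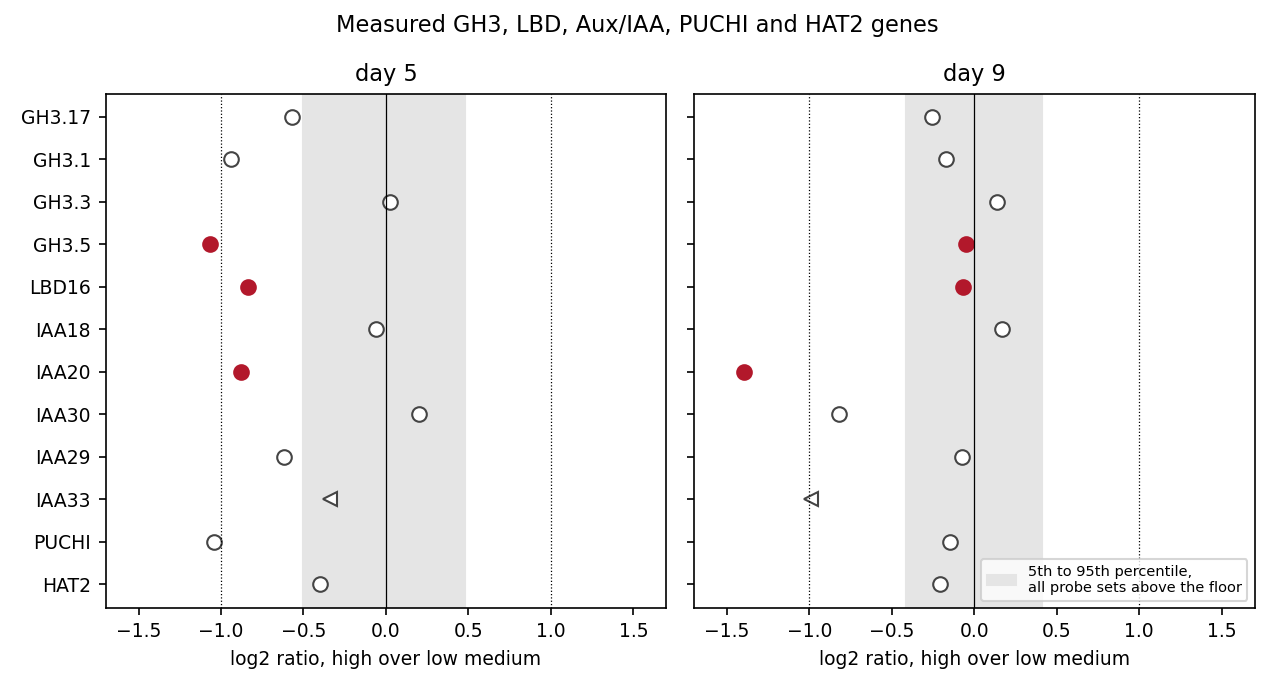
Log2 ratio of high over low medium at day 5 (left) and day 9 (right) for the measured GH3, LBD and Aux/IAA genes above the floor on at least 1 array, with PUCHI and HAT2. Filled points are GH3.5, LBD16 and IAA20, triangles are bounds where high medium lay at the floor, the grey band runs from the 5th to the 95th percentile of probe sets above the floor on both arrays, and dotted lines mark 2-fold. GH3.5, GH3.1, GH3.17, LBD16, IAA29 and PUCHI lie left of the band at day 5 and inside it at day 9. IAA20 lies left of it on both days, at -0.88 and -1.40.

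Against callus, the 10 Aux/IAA, GH3 and LBD genes with a ratio had a median log2 ratio of -0.37 in the high medium at day 2, with 8 lower and 2 higher. At day 5 of high medium their median was -0.34, with 7 lower and 3 higher, and by day 9 it was 0.19, with 4 lower and 6 higher. The low medium gave a median of 0.30 at day 5, where 9 of 10 were higher, and of 0.52 at day 9, where 10 of 10 were. Over all genes with a ratio the median lay between -0.03 and -0.005 in each of these 5 comparisons. In the high medium 4109 of all genes were lower and 3600 higher at day 2. At day 5 of high medium 4140 were lower and 3760 higher, and at day 9 4037 and 3758. In the low medium 4020 were lower and 3945 higher at day 5, and 4008 and 3733 at day 9. Without GH3.5, LBD16 and IAA20, which were chosen by their values, 7 of the 10 family genes were left. Their median in the high medium was -0.28 at day 2, with 6 lower and 1 higher. It was -0.33 at day 5, with 4 lower and 3 higher, and 0.21 at day 9, with 3 lower and 4 higher. In the low medium their medians were 0.28 and 0.51, with 6 of 7 higher at day 5 and 7 of 7 at day 9.

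Genes of auxin synthesis and turnover gave few values. Of 4 measured genes of the synthesis list, 2 lay above the floor on at least 1 array, and of the conjugate turnover list 1 of 2. None of these 6 genes passed the 2-fold size in the 7 comparisons with the floor used, but some came near it or had only a bound. YUC2, a gene of auxin synthesis, had a log2 ratio of 0.99 in the low medium at day 5 against callus, where 1 auxin gene passed under each of the 3 other scalings. UGT74D1, a glucosyltransferase gene, lay below the floor in all 5 liquid cultures and read 41.7 in callus, so its log2 ratios against callus were at most -0.76. YUC4, another gene of auxin synthesis, read 18.1 in callus, below the floor, and 38.8 in the high medium at day 5. Its log2 ratio there was at least 0.65. These genes are named after their values were seen. Of 32 genes of cytokinin signalling and turnover, 2 have a named probe set. ARR15, a response regulator gene induced by cytokinin and named here after its values were seen, was the 1 past 2-fold. Its log2 ratio was at least 1.40 in the high medium at day 2 against callus, where 3.24% of all probe sets were 2-fold different. On that array GH3.5 and LBD16 had their lowest levels, while IAA20 read 86.8, above its 59.7 in callus. A link between ARR15 and these genes was not tested.

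Across the 6 arrays the log2 intensities of GH3.5 and LBD16 had a Pearson correlation of 0.97 (Spearman 0.94). Those of GH3.5 and IAA20 had 0.255 (Spearman 0.49), and those of LBD16 and IAA20 had 0.26 (Spearman 0.43). With 6 arrays of 6 different conditions these are descriptions of the courses above. To find the genes most alike, each of the 3 was set against the 1030 named genes that were above the floor on at least 3 arrays and varied by at least 1 on the log2 scale.

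For GH3.5 the 5 most alike were AT4G37295 (r = 0.98), PUCHI (0.98), AT4G12000 (0.98), AT3G01490 (0.96) and the Aux/IAA gene IAA29 (0.96). GH3.1 came sixth. AT4G37295 read 257 in the high and 478 in the low medium at day 5, and at day 9 it read 473 in the high and 531 in the low medium. For LBD16 the 5 were PUCHI (0.98), IAA29 (0.97), GH3.5 (0.97), AT4G37295 (0.97) and AT5G47440 (0.95). The 2 lists shared 3 genes, AT4G37295, PUCHI and IAA29, which is 3 of 5 of each. Shared genes follow from the correlation of 0.97 between GH3.5 and LBD16 on the same arrays, so nothing more is read from them. LBD16 itself varied by less than 1 on the log2 scale, 0.92, and so could not be listed for GH3.5.

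For IAA20 the most alike gene was AT5G47600, with r = 0.93. It was above the floor on only 3 arrays, with 35.7 at day 2 of high medium and 68.0 and 67.1 in the low medium at days 5 and 9. Callus and the later high medium arrays lay below the floor, so its correlation and rank rest on 3 values set to the floor. The others were AT3G61930 (0.82), AT2G41080 (0.82), TRM24 (0.81) and AT4G20500 (0.78), the last read by a probe set whose name marks possible matches to more than 1 transcript. The list shared 0 genes with those of GH3.5 and LBD16, which restates the low correlation of IAA20 with both. When the callus array was left out, 3 of the 5 genes named for GH3.5, 1 of those for LBD16 and 1 of those for IAA20 were named again. Of the 1030 genes, 18 had a correlation over 0.9 with GH3.5, 18 with LBD16 and 1 with IAA20. TRM24 read 18.2 in the high medium at day 5, below the floor, and 57.1 in the low medium, and 29.2 and 59.8 in the high and low medium at day 9.

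**Figure D4:**
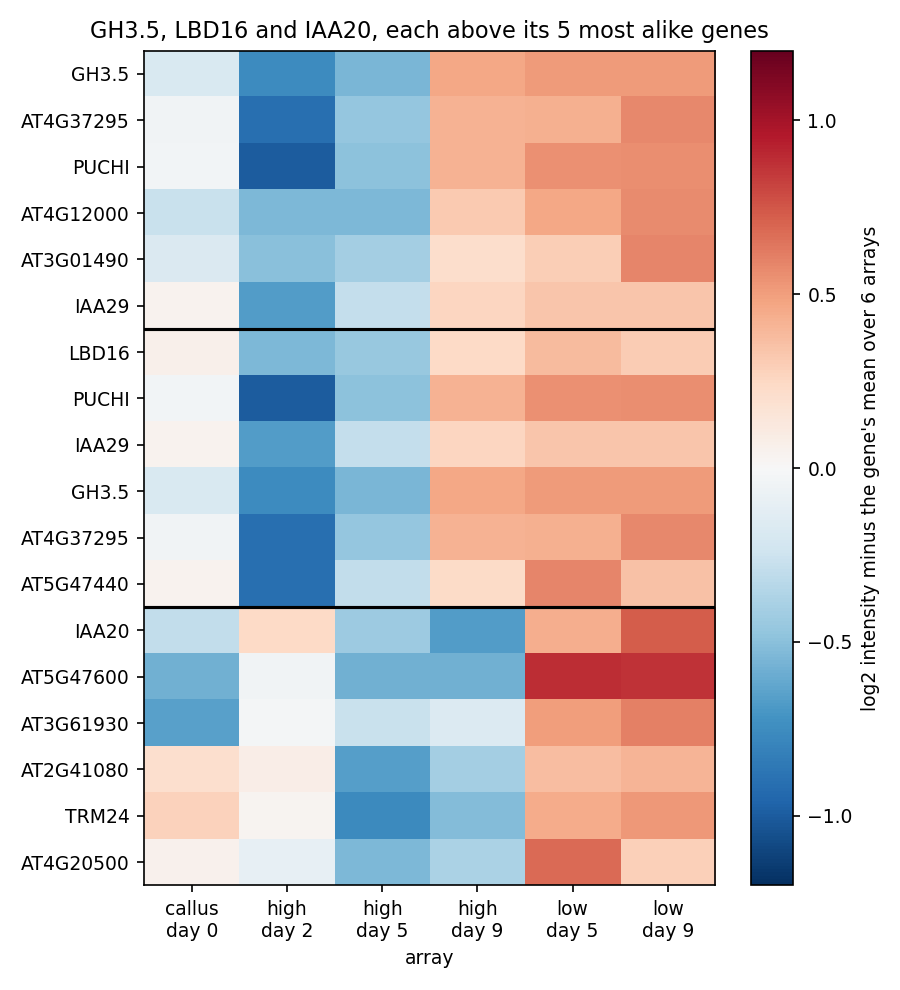
Log2 intensity on each array (columns, by medium and day) minus the gene's own mean over the 6 arrays, for GH3.5, LBD16 and IAA20 (first row of each block) and the 5 named genes most alike to each by Pearson correlation. The blocks of GH3.5 and LBD16 are low at days 2 and 5 of high medium and high on the last 3 columns, while the IAA20 block is low at days 5 and 9 of high medium and high in the 2 low medium columns.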

How the data were processed

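RNA of 6 Arabidopsis thaliana cultures was hybridised to 1-colour arrays, with 1 array for each condition. The values the authors deposited are intensities on a linear scale for 22810 probe sets. Which software summarised and scaled them was not given in the sources used here. Samples were grouped by their source names. The 64 control probe sets were left out, values below the floor of 24.7 were raised to it, and log2 was taken. Of the probe sets, 13513 have 1 gene and 503 have several in the platform annotation. By gene identifier 13436 matched the RefSeq table of TAIR10.1, used for names and gene order only, and the brightest probe set was kept for each of 13286 genes. Processing used Python 3.11.15, numpy 2.4.6 and pandas 2.3.3, and the counting and ranking were tested on simulated data.

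The genes and lists were chosen with earlier results of these data known. A listed locus was kept where the tables give it the listed name, and 8 measured auxin loci without one were dropped. This rule was not applied to the reference list, whose 6 measured genes were taken by locus. Among them only UBC21 has its listed name in the tables. The named genes were GH3.5, LBD16 and IAA20, family genes 2-fold different in any of 7 comparisons, other listed genes 2-fold different between media, the 5 most alike to each, and the reference genes TIP41L and SAND. The remaining family genes above the floor are named in full. A part of the rule that needed protein identity was not used. Alternatives were 3 scalings, 2 floors and a pseudocount of 16 without a floor, and for likeness Spearman correlation and leaving out callus. With 1 array per condition there was no test, and the number of arrays limits the precision.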

Additional observations from a re-analysis of the deposited data

Results flagged for a closer look

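Several genes moved in opposite directions under the same contrast, with 1 array on each side, so none of these differences was tested. Against callus at day 5, GH3.5 had a log2 ratio of -0.37 in the high medium and 0.69 in the low medium, and LBD16 had -0.52 in the high and 0.32 in the low medium. IAA20 had -0.14 in the high and 0.74 in the low medium at day 5, and -0.37 in the high and 1.03 in the low medium at day 9. All of these share the callus array. The values of -0.37 for GH3.5, 0.32 for LBD16, and -0.14 and -0.37 for IAA20 are smaller in size than the largest range of a reference gene over the arrays, 0.45, so one side of each of these pairs is not set apart from no change. Between high and low medium, IAA30 had 0.20 at day 5 and -0.82 at day 9, and IAA18 had -0.061 and 0.168. Both values of IAA18 and the day 5 value of IAA30 are smaller in size than the largest reference gene ratio between media, 0.243 at day 5 and 0.231 at day 9.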

How the results depend on the processing

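Of 124 log2 ratios of GH3.5, LBD16 and IAA20 recomputed under 6 alternatives, 120 kept their direction and their side of the 2-fold size, 4 no longer passed it and 0 turned. The ratio of GH3.5 between media at day 5 ran from -1.08 to -1.02, that of LBD16 from -0.85 to -0.74 and that of IAA20 from -0.89 to -0.61. IAA20 at day 9 had -0.90 with a floor at the 60th percentile, an intensity of 65.1, since high medium then lay at the floor, and -1.42 to -1.15 under the other 5. For IAA20 in the low medium at day 9 against callus the ratio was 0.98 with scaling to the reference genes, 0.90 with the floor at the 60th percentile and 0.86 with the pseudocount. With that floor IAA20 gave no ratio for high medium at days 5 and 9 against callus.
Counts of probe sets at least 2-fold different moved with the floor. With the floor at the 20th percentile, an intensity of 7.7, they were 982 at day 5 and 429 at day 9 between high and low medium, against 264 and 94 with the floor used. With the floor at the 60th percentile they were 113 and 34. Against callus the lower floor gave 1347 (day 2), 2095 (day 5) and 1334 (day 9) in the high medium with 1992 (day 5) and 1225 (day 9) in the low medium, and the higher floor gave 401, 523, 420, 586 and 344 in the same order. The floor used gave 737, 965, 707, 993 and 627. Auxin genes at that size between media at day 5 numbered 1 in place of 2 with quantile normalization or the pseudocount. At day 9 they numbered 2 in place of 1 with equal medians, the lower floor or the pseudocount, and 0 with the higher floor. Against callus they numbered 2 in place of 0 in the high medium at days 2 and 9 with the lower floor, and 2 with quantile normalization and 4 with the lower floor in place of 1 at day 5. In low medium they numbered 1 in place of 0 at day 5 under all 3 scalings, and at day 9, in place of 1, 2 with the lower floor and 0 with the higher floor or scaling to the reference genes. Of the 5 genes most like GH3.5, 3 were shared by Spearman correlation and 3 without the callus array, and without callus 1 of 5 was shared for LBD16 and 1 of 5 for IAA20. The causes were not tested. Averaging over probe sets gave no other value, since each of the 3 genes has 1 probe set. No paired analysis was possible because each condition has 1 array.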

Other observations

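Of the genes next to GH3.5, LBD16 and IAA20 on the chromosome, by order in the RefSeq table of TAIR10.1, only those beside GH3.5 have a named probe set. AT4G27250 read 26.9 in the high and 40.0 in the low medium at day 5, and at day 9 it read 36.5 in the high and 41.0 in the low medium. AT4G27270 read 40.3 and 40.5 in the high and low medium at day 5, 48.5 and 50.9 at day 9, and 91.4 in callus.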
